A study of Mus musculus with 14 samples.

Results

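The genes described here are 48 cell cycle genes: 21 that act at the G1/S transition and in DNA replication and 27 that act in G2 and mitosis. They were taken by gene symbol from the probe annotation of a spotted mouse oligonucleotide array, on which 13661 genes are named, and each gene is represented by its best-measured probe. Of the 48 genes, 47 have a probe, and Ccnb1, the cyclin that drives entry into mitosis, has none. The series measured total RNA of cultured mouse astrocytes, the glial cells that are joined by channels of connexin43 (Cx43, gene Gja1), and its title contrasts astrocytes without Cx43 with astrocytes in which it was knocked down. The null group (4 samples) comes from mice without a functional Cx43 gene, the siRNA group (4 samples) from wild-type cells that received 20 ug of a small interfering RNA against Cx43 for 36 h per the design text and 48 h per the protein protocol, and the wild-type group (6 samples) from cells for which no transfection, mock or other, is described. All groups are primary cultures from the brains of newborn littermates, each brain cultured separately and passaged once; the titles call them cortical, and the protocol describes dissection of the whole brain. The sources used here give neither strain, sex nor the deleted stretch of the gene.

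Each sample was labelled from 20 ug of RNA with Cy3 or Cy5, and the deposited values are log2 levels centred on a median of 0 in each column, so a level of 1 probe is compared only between samples. Across probes, the correlation with the average of the remaining columns was 0.37 and 0.38 for wild-type replicates 1 and 2 and -0.02 for wild-type replicate 5, against 0.89 to 0.95 for the 11 others. These 3 samples are left out, and values are given in the order of null replicates 1 to 4, siRNA replicates 1 to 4 and wild-type replicates 3, 4 and 6. Replicates 1 and 2 had a value at 17849 to 19823 of 33600 probes, and replicates 3 and above at 20757 to 26826. Consecutive samples of a group carry opposite dyes and correlated at 0.927 to 0.991 where both were used, and nothing says whether they share an array or a culture, so the p-values measure a spread between samples that could be technical alone. The number of samples limits the precision, and the signal over background of each value is unknown.

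Dividing cells transcribe such genes in 2 waves. Before and during DNA synthesis, E2F transcription factors switch on the helicase, polymerase and nucleotide-supply genes, and in G2 and mitosis a second set is switched on through promoter elements known as the CHR and the CCAAT box, which bind the MuvB-B-MYB-FOXM1 complexes and NF-Y. Astrocytes of newborn mice divide in culture until they become confluent, and the summed level of such genes in a culture reflects the share of cells in cycle.

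Promoter windows from 250 bases before to 50 bases after the transcript start were available in the RefSeq table of build GRCm38.p6 for 38 of the 48 genes, 17 of the G1/S and 21 of the G2/M genes. They are shown because the 2 phases differ in the letters they hold. Searched on both strands were the E2F letters TTTCGCGC and TTTGGCGC, the CHR letters TTTGAA and the letters CCAAT. The E2F letters stood in 6 of 17 G1/S promoters (35.3%) and in 1 of 21 G2/M promoters (4.76%), against 0.929% of the 27025 genes of the table. The CHR letters stood in 1 of 17 G1/S promoters (5.88%) and in 15 of 21 G2/M promoters (71.4%), against 20.2% of all genes. CCAAT stood in 10 of 17 (58.8%) and in 18 of 21 (85.7%), against 41.1%. A match describes the letters of the window and is not a measured binding site. The windows of the 3 genes of each phase with the smallest p in any comparison between groups, among those in the table, follow 5′ to 3′ on the strand of the gene, with capitals at the E2F, CHR and CCAAT letters in either orientation; no 2 matches overlapped in them.
Mcm2 (chr6:88898731-88899030, minus strand): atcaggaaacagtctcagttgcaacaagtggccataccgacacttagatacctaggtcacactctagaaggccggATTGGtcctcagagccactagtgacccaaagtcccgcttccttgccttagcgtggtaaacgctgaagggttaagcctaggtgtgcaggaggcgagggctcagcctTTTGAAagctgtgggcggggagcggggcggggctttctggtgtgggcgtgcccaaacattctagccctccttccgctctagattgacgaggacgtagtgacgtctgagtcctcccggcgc
Cdc6 (chr11:98907901-98908200, plus strand): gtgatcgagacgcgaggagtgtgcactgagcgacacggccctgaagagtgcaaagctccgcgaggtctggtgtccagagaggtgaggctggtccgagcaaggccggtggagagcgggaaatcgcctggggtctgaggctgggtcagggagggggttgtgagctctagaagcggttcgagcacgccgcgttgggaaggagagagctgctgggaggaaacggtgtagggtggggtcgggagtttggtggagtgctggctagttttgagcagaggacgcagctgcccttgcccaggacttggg
Ccne1 (chr7:38107441-38107740, minus strand): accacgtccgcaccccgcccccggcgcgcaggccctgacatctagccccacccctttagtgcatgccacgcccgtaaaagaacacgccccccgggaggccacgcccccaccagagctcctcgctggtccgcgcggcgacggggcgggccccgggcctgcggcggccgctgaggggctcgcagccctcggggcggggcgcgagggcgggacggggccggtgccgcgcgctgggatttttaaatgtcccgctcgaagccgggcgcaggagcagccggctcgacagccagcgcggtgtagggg
Cenpa (chr5:30666636-30666935, plus strand): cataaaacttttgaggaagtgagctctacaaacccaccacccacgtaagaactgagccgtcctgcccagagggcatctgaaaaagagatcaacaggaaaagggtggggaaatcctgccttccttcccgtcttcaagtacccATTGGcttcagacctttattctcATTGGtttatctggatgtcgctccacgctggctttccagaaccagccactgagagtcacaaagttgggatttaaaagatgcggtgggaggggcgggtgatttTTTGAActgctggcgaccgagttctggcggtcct
Hmmr (chr11:40733388-40733687, minus strand): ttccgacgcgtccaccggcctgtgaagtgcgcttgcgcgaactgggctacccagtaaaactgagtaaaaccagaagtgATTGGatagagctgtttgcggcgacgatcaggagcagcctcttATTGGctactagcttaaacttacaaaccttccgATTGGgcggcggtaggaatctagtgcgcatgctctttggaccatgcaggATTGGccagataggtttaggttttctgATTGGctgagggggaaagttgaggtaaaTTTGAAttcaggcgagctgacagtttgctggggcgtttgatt
Mki67 (chr7:135716330-135716629, minus strand): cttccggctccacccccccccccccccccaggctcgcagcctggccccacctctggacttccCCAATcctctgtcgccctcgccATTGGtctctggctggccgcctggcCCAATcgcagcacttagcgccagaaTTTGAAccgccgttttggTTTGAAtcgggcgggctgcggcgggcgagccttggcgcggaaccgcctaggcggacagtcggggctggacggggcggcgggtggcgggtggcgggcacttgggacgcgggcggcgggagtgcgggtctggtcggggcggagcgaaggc
Mcm2, the helicase subunit, holds 1 CHR and 1 CCAAT match, and Cdc6, which loads the helicase, and Ccne1, cyclin E1, hold none of the letters searched. Cenpa, the histone of centromeres, has its CHR letters 17 to 22 bases into the transcript and 2 CCAAT matches before the start. Hmmr, a spindle-binding protein, has 5 CCAAT matches and 1 CHR match, and Mki67, which coats mitotic chromosomes and is the usual stain for dividing cells, has 3 and 2.

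**Figure D1:**
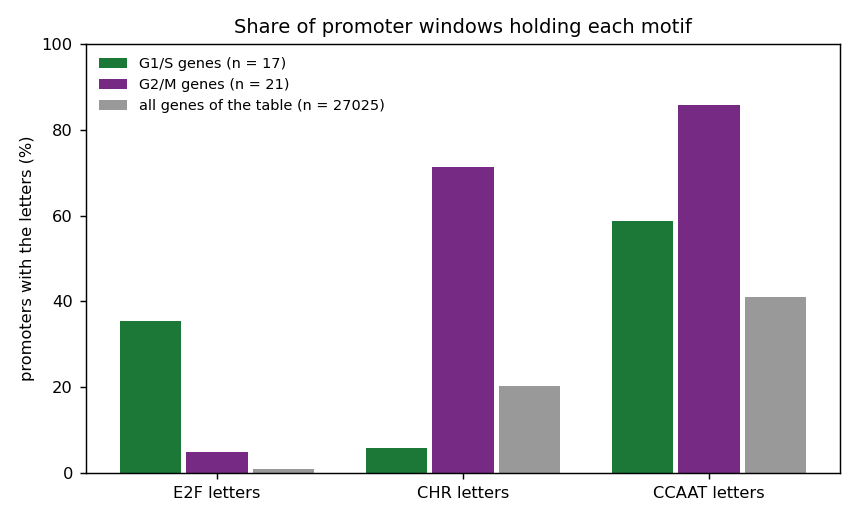
Share of promoter windows (vertical axis, percent) that hold the E2F, CHR or CCAAT letters, with bars for the 17 G1/S genes, the 21 G2/M genes and the 27025 genes of the table. The E2F letters are most frequent in the G1/S genes (35.3%) and the CHR letters in the G2/M genes (71.4%).

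Gja1, the targeted gene, read -1.17, -1.06, 2.82 and 3.03 in null, 1.93, 2.13, 5.47 and 5.70 in siRNA-labelled and 6.08, 7.53 and 4.82 in wild-type samples. Null replicates 3 and 4 lay below all wild-type samples, and null replicates 1 and 2 lay lower still. In limma, with terms for dye and for replicate set (replicates 1 and 2 or replicates 3 and above), Gja1 was lower in null than in wild type by a log2 difference of -3.31 ± 0.58 (SE; adjusted p = 0.04; 0.298 with array pairs as a random block). In the siRNA-labelled samples the difference was -0.41 ± 0.58 (adjusted p = 0.732), and siRNA replicates 3 and 4 lay inside the wild-type range, so a direction drawn from these 2 samples rests on their labels. No wild-type sample in the fit is a replicate 1 or 2, so the difference between the sets was estimated within null and siRNA and taken off before their comparison with wild type. The probe checks the null label only if it lies in the deleted stretch, which the sources do not tell. Of the astrocyte markers, 11 had values, among them Glul, glutamine synthetase, Aqp4, a water channel, and Fabp7, a fatty acid carrier; Gfap and Gjb6 had none in any of the 11 samples.

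The median level of the 17 G1/S genes with a value in all 11 samples was 1.32, 1.37, 1.82 and 1.68 in null, 1.17, 1.12, 2.13 and 2.25 in siRNA-labelled and 2.08, 1.97 and 1.30 in wild-type samples. For the 23 G2/M genes it was 1.04, 1.10, 1.72 and 1.56 in null, 0.29, 0.58, 1.49 and 1.74 in siRNA-labelled and 2.05, 1.57 and 1.06 in wild-type samples. The lowest values of both lists in the null and siRNA-labelled groups stood in replicates 1 and 2. The wild-type values overlapped those of null replicates 3 and 4 in both lists. They overlapped those of siRNA replicates 3 and 4 in the G2/M list. In the G1/S list both of these siRNA values lay above all wild-type values. Among the wild-type samples, replicate 6 was the lowest at 13 of 20 G1/S and at 19 of 25 G2/M genes, against 43.8% of all probes. The median difference of replicate 3 minus replicate 6 was 0.95 for either list and 0.60 for all probes. The median of the 14243 probes with a value in all 11 samples was also lowest in replicates 1 and 2 of either group. It was 0.54, 0.59, 1.64 and 1.44 in null and 0.45, 0.80, 1.36 and 1.52 in siRNA-labelled samples. In wild-type samples it was 1.68, 0.97 and 1.23. The part of this shift of all probes in the list medians was not tested. A mixed sample gives the same value for fewer dividing cells and for less RNA in each of them, and these cannot be told apart here.

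The first comparison asks which cell cycle genes differ in astrocytes without Cx43. No G1/S gene (0 of 20 tested) and no G2/M gene (0 of 25) passed an adjusted p of 0.05 in limma for null against wild type, against 0.589% of all 20369 probes called. At an unadjusted p under 0.05 stood 2 of 20 G1/S genes, Mcm2 and Cdc6, and 1 of 25 G2/M genes, Cenpa. These shares of 10% and 4% lie below the 17.0% of all probes. The median difference was 0.09 over the G1/S genes and 0.06 over the G2/M genes, against 0.27 over all probes. Positive were 12 of 20 and 14 of 25, against 65.5% of all probes. With the replicate number as a block both medians lay below 0, at -0.13 and -0.09. Null replicates 3 and 4 both lay above all 3 wild-type samples at 3 of 20 G1/S and 3 of 25 G2/M genes, against 24.5% of probes. They both lay below at 3 of 20 and 3 of 25, against 7.56%.

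Mcm2, a subunit of the helicase that opens replication origins, had the largest fitted difference. It read -2.02, -1.77, 0.72 and 0.99 in null, -1.53, -0.87, -0.30 and 0.14 in siRNA-labelled and -1.40, -1.46 and -1.64 in wild-type samples. The wild-type samples lay close together, null replicates 3 and 4 stood more than 2 log2 units above them and null replicates 1 and 2 below them. The fitted difference of null minus wild type was 2.00 ± 0.45 (SE; adjusted p = 0.0618 in limma), and it passed within replicates 3 and above alone, at 2.38 (adjusted p = 0.0107). With array pairs as a random block the adjusted p was 0.316. With 1 sample left out at a time the difference ranged over 1.68 to 2.20 (adjusted p = 0.0449 to 0.317) and passed without siRNA replicate 2.

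Cdc6, which loads the helicase onto origins, had values in replicates 3 and above: 0.70 and 1.08 in null, -0.94 and -0.71 in siRNA-labelled and -0.82, -0.49 and -1.16 in wild-type samples. Both null values lay above all other values, and the siRNA-labelled values lay among those of wild type. The difference of null minus wild type was 1.75 ± 0.45 (adjusted p = 0.0988) and that of null minus siRNA 1.71 ± 0.49 (adjusted p = 0.0734). Both passed in limma on replicates 3 and above alone, with adjusted p = 0.04997 and 0.0486. Ung, which removes uracil from DNA, came next by p among the G1/S genes and read -2.22, -1.92, -0.17 and -0.69 in null, -2.67, -1.84, -1.15 and -0.92 in siRNA-labelled and 0.05, -2.02 and -2.95 in wild-type samples. Its wild-type samples spread over 3 log2 units and covered all null values.

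Of the G2/M genes, Cenpa, which marks centromeres, read 3.47, 3.23, 5.25 and 4.86 in null, 1.29, 1.20, 3.62 and 4.17 in siRNA-labelled and 3.85, 4.23 and 4.03 in wild-type samples. Null replicates 3 and 4 lay above wild type and null replicates 1 and 2 below it, and the fitted difference of null minus wild type was 1.26 ± 0.40 (adjusted p = 0.135). Cdc25c, the phosphatase that activates the mitotic kinase Cdk1, read -2.23, -2.07, -1.21 and -1.63 in null, -3.24, -2.56, -1.87 and -2.22 in siRNA-labelled and -0.51, -0.24 and -0.95 in wild-type samples. All 4 null values lay below all wild-type values, with a fitted difference of -0.82 ± 0.39 (adjusted p = 0.309). Aurka, a spindle pole kinase, read 1.22, 1.10, 2.09 and 1.60 in null, 0.13, 0.58, 2.48 and 2.58 in siRNA-labelled and 2.00, 0.86 and 1.06 in wild-type samples, with a difference of 0.86 ± 0.47 (adjusted p = 0.383).

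The usual markers of dividing cells did not differ beyond their error between null and wild type. Mki67 read 1.89, 1.73, 2.15 and 2.14 in null, 0.51, 0.68, 0.83 and 1.74 in siRNA-labelled and 2.56, 2.08 and 1.61 in wild-type samples. Its null values lay inside the wild-type range, and the difference of null minus wild type was 0.15 with a 95% interval of -0.75 to 1.04. Top2a, the topoisomerase that untangles replicated DNA, read 1.44, 1.42, 2.91 and 1.97 in null, 0.42, 0.66, 2.33 and 2.69 in siRNA-labelled and 3.19, 2.06 and 1.98 in wild-type samples, with a difference of 0.21 and an interval of -0.78 to 1.19. Pcna, the sliding clamp of the DNA polymerases, read 5.31, 5.16, 5.33 and 5.79 in null, 4.99, 4.94, 4.40 and 5.25 in siRNA-labelled and 5.90, 6.06 and 4.51 in wild-type samples. The difference was -0.04 with an interval of -1.09 to 1.01. Differences within these intervals are compatible with the values, and no limit of detection was computed.

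Cdk1, the kinase that starts mitosis, read 4.52, 4.46, 3.82 and 3.35 in null, 3.78, 3.88, 2.99 and 3.76 in siRNA-labelled and 4.90, 4.27 and 3.06 in wild-type samples, and Aurkb, the kinase of the chromosomal passenger complex, read 0.71, 0.33, 1.79 and 1.28 in null, 0.40, 0.59, 1.63 and 1.53 in siRNA-labelled and 1.83, 2.03 and 1.01 in wild-type samples. Their differences of null minus wild type were -0.42 ± 0.49 and -0.11 ± 0.39 (adjusted p = 0.722 and 0.927). Ccnd1, cyclin D1, which carries growth signals into the cycle, read 3.79, 3.25, 4.74 and 6.06 in null, 4.31, 4.60, 4.26 and 4.38 in siRNA-labelled and 5.06, 6.11 and 6.16 in wild-type samples. Null replicates 1 to 3 lay below all wild-type samples and null replicate 4 was among them, and the difference was -0.80 ± 0.55 (adjusted p = 0.51).

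**Figure D2:**
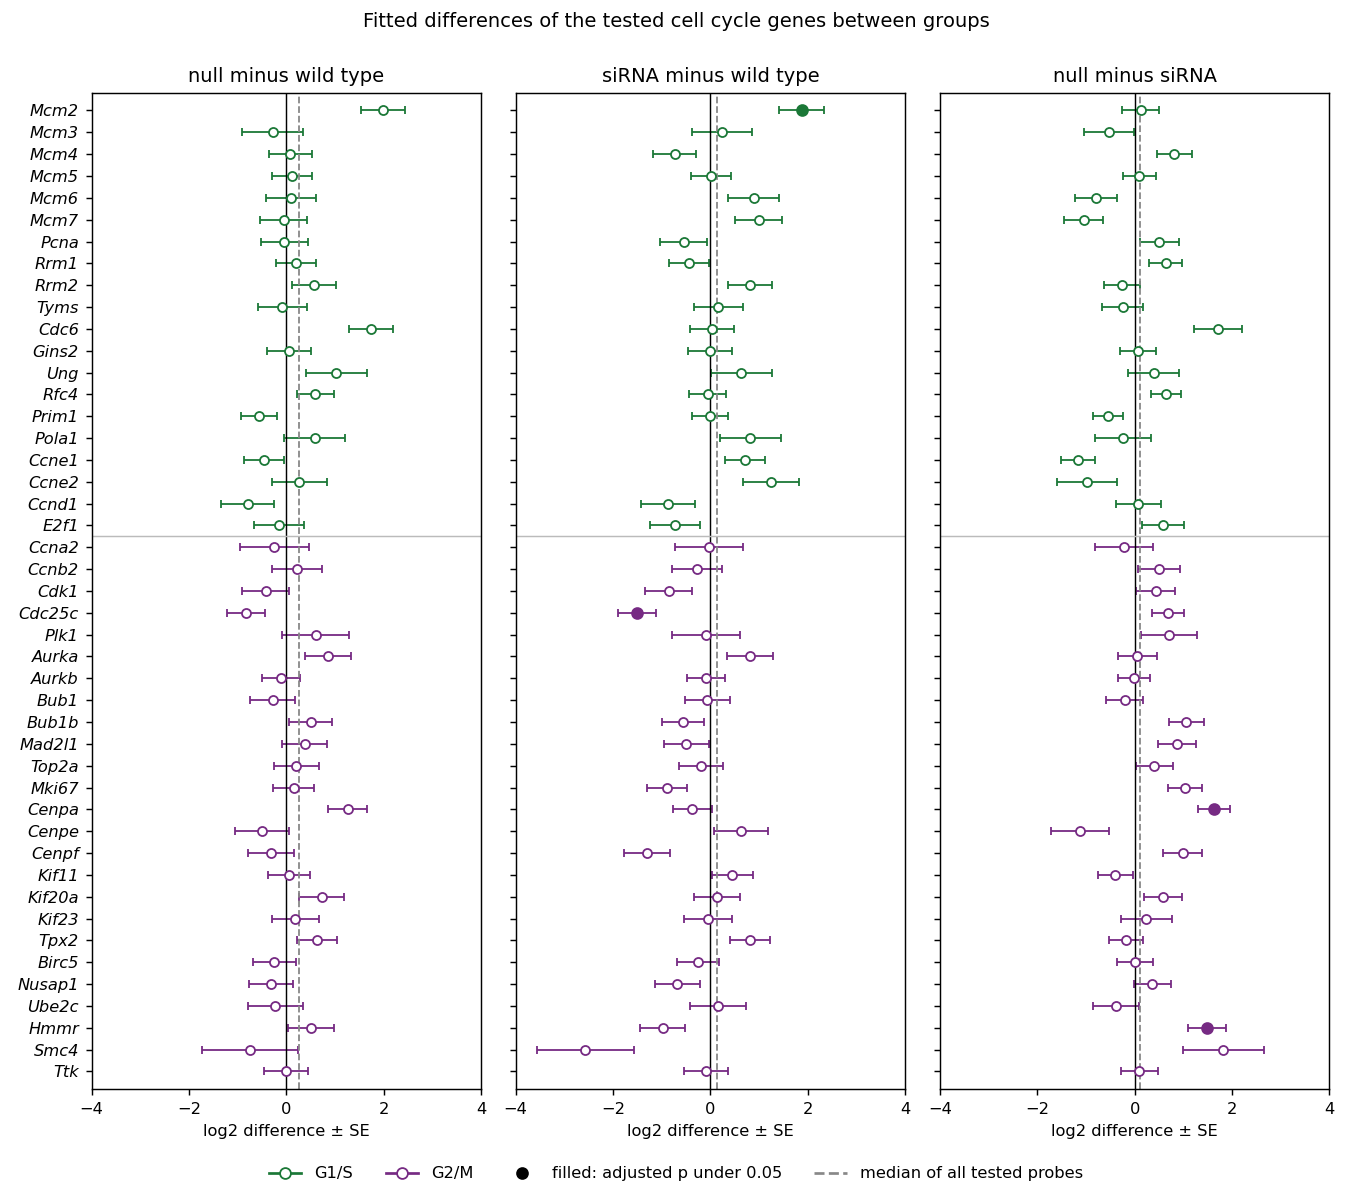
Fitted log2 difference (horizontal axis, points, with bars of 1 SE) of each tested G1/S gene (green) and G2/M gene (purple) for null minus wild type, siRNA minus wild type and null minus siRNA; filled points have an adjusted p under 0.05 in limma. The 4 filled points are Mcm2 (1.87) and Cdc25c (-1.51) for siRNA minus wild type, and Cenpa (1.64) and Hmmr (1.49) for null minus siRNA; the dashed line is the median of all tested probes.

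The second comparison, of siRNA-labelled with wild-type samples, asks the same of samples labelled as treated with the siRNA, in which Gja1 did not pass the test. Of the G1/S genes 1 of 20 rose and of the G2/M genes 1 of 25 fell, against 7.38% of all 20352 probes called. Both shares lie below that of all probes. The rise was Mcm2, with a fitted difference of 1.87 ± 0.45 or 3.66-fold (SE; adjusted p = 0.0292 in limma). siRNA replicates 2 to 4 lay above all wild-type values of Mcm2, and siRNA replicate 1 lay among them. The fall was Cdc25c, by 1.51 ± 0.39 or 2.85-fold (adjusted p = 0.0378), with all 4 siRNA-labelled values below all wild-type values. Within replicates 3 and above the differences were 1.44 for Mcm2 and -1.52 for Cdc25c (adjusted p = 0.0665 and 0.0589). With array pairs as a random block neither passed (adjusted p = 0.125 and 0.238). Leaving out 1 sample at a time kept Mcm2 at 1.69 to 2.19 (adjusted p = 0.0401 to 0.0976), past the threshold except without wild-type replicate 4, null replicate 1, siRNA replicate 3 or siRNA replicate 4. Cdc25c ranged over -1.70 to -1.34 (adjusted p = 0.0263 to 0.196) and passed in 2 of the 11 fits, those without wild-type replicate 6 and without siRNA replicate 2.

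Of the G2/M genes 6 of 25 had a positive difference of siRNA minus wild type, with a median of -0.20, and of the G1/S genes 12 of 20 had one, with a median of 0.10 (-0.18 without the set term); over all probes the median was 0.13 and 56.6% were positive. siRNA replicates 3 and 4 both lay below all 3 wild-type samples at 2 of 20 G1/S and 4 of 25 G2/M genes, against 16.7% of probes. They both lay above at 5 of 20 and 5 of 25, against 22.1%. In the same comparison 6 of 9 tested microglia markers fell, and the median of 8 of them was 2.30 to 5.44 in null, 1.34 to 2.18 in siRNA-labelled and 3.71 to 4.55 in wild-type samples. Csf1r, Cx3cr1 and Cd68 had no value in any of the 11 samples. Of 8 fibroblast and mural cell markers 2 fell, Col3a1 and Dcn, and the median of the 4 measured in all 11 samples was -1.07 to 0.91 in null, -2.39 to 0.35 in siRNA-labelled and 0.38 to 2.42 in wild-type samples. Of 10 astrocyte markers 1 rose and 1 fell, and of 8 markers of neurons and progenitors 1 rose and 1 fell. Of 7 of the oligodendrocyte lineage 0 were called in limma (2 at an unadjusted p under 0.05, against 23.4% of all probes). The part of such cells in the cell cycle values was not tested.

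Other G2/M genes with small p-values were Cenpf, a kinetochore protein, and Smc4, a condensin subunit that compacts mitotic chromosomes. Cenpf read 0.03, -0.0035, 1.53 and 1.19 in null, -1.21, -0.97, 0.48 and 0.49 in siRNA-labelled and 2.62, 1.84 and 0.54 in wild-type samples. siRNA-labelled values lay below all wild-type values, and the difference was -1.30 ± 0.48 (adjusted p = 0.12). With the replicate number as a block 2 G2/M genes passed, Cdc25c and Cenpf. Smc4 read 0.44, 0.73, 5.53 and 3.73 in null, 0.97, 1.30, -0.28 and 1.14 in siRNA-labelled and 4.70, 3.42 and 4.37 in wild-type samples. All siRNA-labelled values lay below all wild-type values by at least 2 log2 units, but null replicates 1 and 2 did too, and the fitted difference was -2.57 ± 0.99 (adjusted p = 0.139). Within replicates 3 and above Smc4 passed, with a difference of -3.80 (adjusted p = 0.00137).

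Of the G1/S genes, Ccne2, cyclin E2, and Mcm7, another helicase subunit, followed Mcm2 by p. Ccne2 had no value in null replicates 1 and 2 and read 2.58 and -0.21 in null replicates 3 and 4, -1.85, -1.96, 2.55 and 1.77 in siRNA-labelled and 1.68, 0.42 and -0.01 in wild-type samples. Its siRNA-labelled values in replicates 3 and 4 lay above wild type and those in replicates 1 and 2 below it, and the difference was 1.25 ± 0.57 (adjusted p = 0.224). Mcm7 read 2.31, 2.48, 4.65 and 3.46 in null, 2.79, 3.33, 5.18 and 5.79 in siRNA-labelled and 4.93, 4.11 and 3.77 in wild-type samples, and its difference was 0.99 ± 0.48 (adjusted p = 0.235). The markers of dividing cells had differences of siRNA minus wild type of -0.89 ± 0.41 for Mki67, -0.20 ± 0.45 for Top2a, -0.86 ± 0.49 for Cdk1 and -0.54 ± 0.48 for Pcna, and none of them passed (adjusted p = 0.217, 0.847, 0.322 and 0.552).

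The third comparison sets null against siRNA-labelled samples, which have all 4 replicates each. Of the G2/M genes 2 of 25 were higher in null and none was lower, against 5.87% of all 20375 probes called in either direction. No G1/S gene (0 of 20) was called in limma. At an unadjusted p under 0.05 stood 4 of these 20 (20%), against 24.8% of all probes. Cenpa was higher by 1.64 ± 0.33 or 3.11-fold (SE; adjusted p = 0.0177), and each null value given above exceeded the siRNA-labelled value of the same number. With 1 sample left out at a time it stayed at 1.46 to 1.87 (adjusted p = 0.0142 to 0.061) and was lost without null replicate 1, null replicate 2 or siRNA replicate 3. Hmmr, which binds spindle microtubules and hyaluronan, read 1.04, 1.11, 2.06 and 2.60 in null, 0.29, 0.18, 0.13 and 0.23 in siRNA-labelled and 2.05, 1.57 and 0.81 in wild-type samples. All null values lay above all siRNA-labelled values, which lay close together, and the difference was 1.49 ± 0.39 or 2.81-fold (adjusted p = 0.0439). With 1 sample left out it ranged over 1.19 to 1.69 (adjusted p = 0.0251 to 0.16) and passed in 2 of the 11 fits, those without wild-type replicate 3 and without wild-type replicate 6.

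In replicates 1 and 2 the difference of null minus siRNA was 2.11 for Cenpa and 0.83 for Hmmr, and in replicates 3 and 4 1.17 and 2.15. With array pairs as a random block neither passed (adjusted p = 0.161 and 0.239). Over the G2/M genes the median of null minus siRNA was 0.41 and 18 of 25 were positive, over the G1/S genes 0.07 and 11 of 20 (-0.11 without siRNA replicate 3), and over all probes 0.11 and 55.5%. Null exceeded siRNA in all 4 same-numbered pairs at 4 of 17 G1/S and 8 of 23 G2/M genes, against 20.5% of probes. The 8 are Bub1b, Cdc25c, Cenpa, Cenpf, Hmmr, Kif20a, Mad2l1 and Mki67, which act at kinetochores and spindles, in the spindle checkpoint or on mitotic chromosomes, or, for Cdc25c, at entry into mitosis. Null was below siRNA in all 4 pairs at 3 of 17 G1/S genes (Ccne1, Mcm7 and the primase subunit gene Prim1) and at 0 of 23 G2/M genes, against 16.5%. In the same comparison 5 of 9 microglia markers were higher in null, and 1 of 9 within replicates 3 and above. The median of 8 of them was 5.15 and 5.44 in null replicates 1 and 2 and 2.30 and 2.84 in null replicates 3 and 4. Also higher in null were 2 of 10 astrocyte markers (Aldoc and Sox9) and 1 of 7 oligodendrocyte lineage markers (Sox10). Gja1, also on the astrocyte list, was lower. Of the fibroblast and mural cell markers 0 of 8 and of the neuron and progenitor markers 0 of 8 were called in limma. At an unadjusted p under 0.05 stood 1 of each list, against 24.8% of all probes. The part of these cells was not tested.

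Ccne1, which activates Cdk2 at the G1/S transition, read 0.93, 0.95, 0.69 and 0.25 in null, 1.48, 1.51, 2.25 and 2.24 in siRNA-labelled and 1.65, 1.00 and 0.93 in wild-type samples. All null values lay below all siRNA-labelled values, and the difference of null minus siRNA was -1.16 ± 0.35 (adjusted p = 0.0681; 0.324 with array pairs). Within replicates 3 and above it passed, at -1.77 (adjusted p = 0.0399). The second Ccne1 probe, measured in all 11 samples, had -0.79 there and did not pass (adjusted p = 0.351 in limma). Mki67 had a difference of null minus siRNA of 1.04 (95% interval 0.29 to 1.78; adjusted p = 0.0924), and Mcm7 had a difference of -1.05 ± 0.40 (adjusted p = 0.131). With the replicate number as a block 2 G1/S genes passed, Ccne1 and Cdc6.

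**Figure D3:**
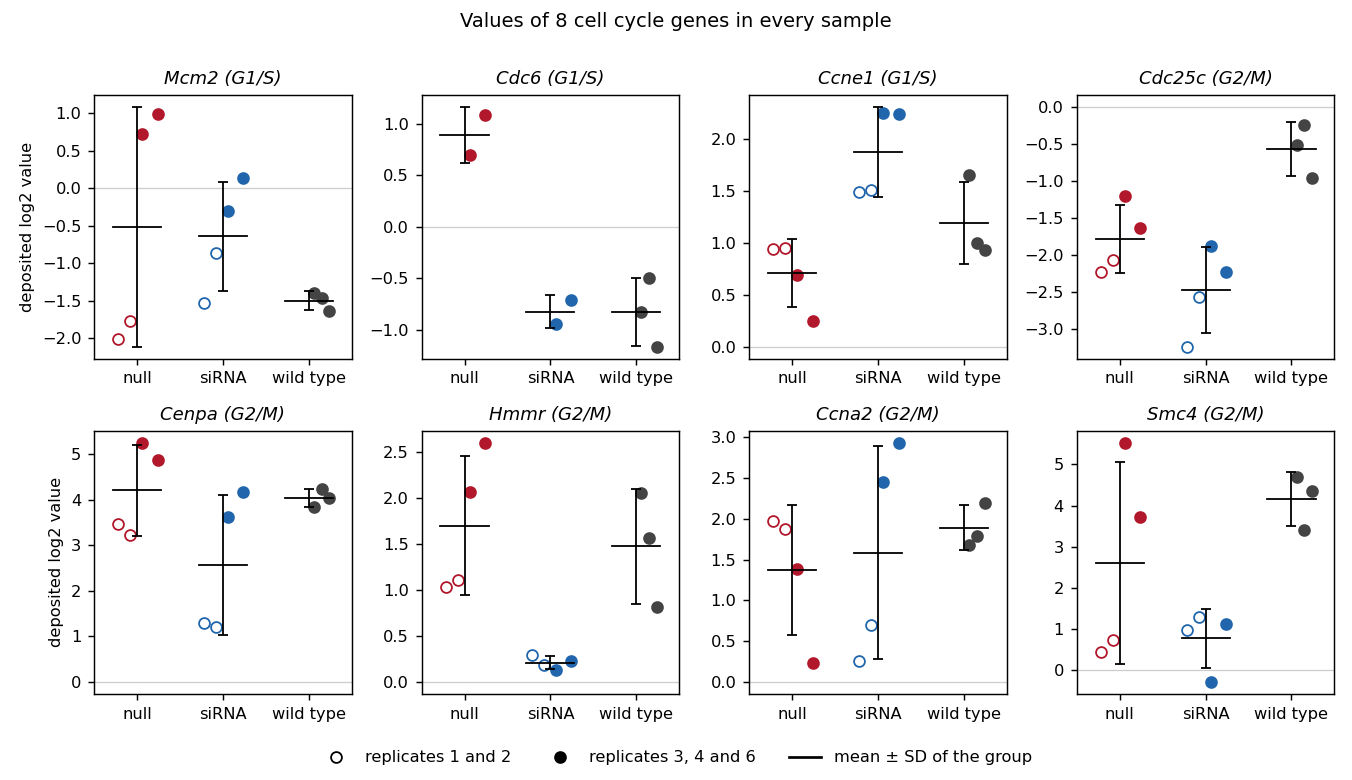
Deposited log2 value (vertical axis, a scale of its own in each panel) of 8 genes in null, siRNA-labelled and wild-type samples. Open circles are replicates 1 and 2, filled circles replicates 3, 4 and 6, and the line and bar are the mean ± SD of the group's values. The null and siRNA-labelled values of Hmmr do not overlap, and the open circles of Ccna2 lie above the filled ones in null and below them in siRNA.

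More probes were called between the replicate sets than between groups. In null and siRNA-labelled samples 8 of 19 G1/S genes and 11 of 24 G2/M genes were lower in replicates 1 and 2 than in replicates 3 and 4 and 0 higher, in limma at an adjusted p under 0.05, against 39% of all 18507 probes lower and 44.6% called in either direction. The median difference was -0.65 over the G1/S genes and -1.21 over the G2/M genes, and -0.78 over all probes, which is the shift of the probes with values in both sets. With array pairs as a random block 5 G1/S and 6 G2/M genes were lower, against 24.9% of probes. All 4 samples of replicates 1 and 2 lay below all 4 of replicates 3 and 4 at 6 of 17 G1/S and 12 of 23 G2/M genes, against 36.3% of probes. The G1/S shares are near those of all probes. So is the G2/M share called with array pairs, while that called without them is somewhat above. The G2/M share in full order was 52.2%. Leaving out null replicate 3, null replicate 4 or siRNA replicate 4 left 5 G1/S genes lower, and the G2/M count ranged over 8 to 13 with any 1 sample left out. The sources used here do not say what sets the replicate sets apart; 4 of 9 microglia markers were higher in replicates 1 and 2, and their part was not tested.

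Of the mitosis genes, Kif20a, the kinesin of the central spindle, read -2.02, -1.81, 2.38 and 2.08 in null, -2.54, -1.90, 1.09 and 1.64 in siRNA-labelled and 2.25, 0.94 and 0.83 in wild-type samples. Both groups stood near -2 in replicates 1 and 2 and above 1 in replicates 3 and 4, a difference of -3.86 ± 0.39 (adjusted p = 1.32e-05; 0.000364 with array pairs). Ccnb2, cyclin B2, which partners Cdk1, read -1.34, -1.09, 0.91 and 1.01 in null, -2.62, -2.44, 1.10 and 1.46 in siRNA-labelled and 1.81, 1.29 and 0.29 in wild-type samples. Its difference between the sets was -2.99 ± 0.43 (adjusted p = 0.000173), and wild-type replicate 6 lay below the null and siRNA-labelled values of replicates 3 and 4.

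Of the 4 spindle checkpoint genes on the list, which hold back anaphase until chromosomes are attached, Bub1, Ttk and Mad2l1 shared this order and Bub1b did not. Bub1 read -0.92, -1.37, 1.20 and 0.48 in null, -1.99, -1.37, 1.81 and 1.75 in siRNA-labelled and 1.70, 1.51 and 1.12 in wild-type samples. Ttk read -1.37, -1.45, 1.65 and 0.70 in null, -1.19, -1.62, 1.03 and 0.92 in siRNA-labelled and 2.11, 0.95 and -0.04 in wild-type samples. Mad2l1 read 1.40, 1.29, 3.94 and 2.85 in null, 0.97, 0.42, 2.29 and 2.30 in siRNA-labelled and 3.87, 2.76 and 1.72 in wild-type samples. Every value of replicates 1 and 2 lay below every value of replicates 3 and 4 in these 3 genes, with differences of -2.72 ± 0.39, -2.48 ± 0.38 and -1.82 ± 0.39 (adjusted p = 0.000151, 0.000254 and 0.00238). Bub1b read 1.39, 1.49, 1.47 and 1.56 in null, -0.35, 0.01, 0.92 and 1.06 in siRNA-labelled and 1.84, 1.29 and 0.67 in wild-type samples. Its null values were nearly level across the sets, and the difference between the sets was -0.62 ± 0.37 (adjusted p = 0.188). Bub1, Ttk and Mad2l1 passed with array pairs, as did Cenpa at -2.18 ± 0.33 in the fit without them (adjusted p = 0.00402 with array pairs).

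Top2a, Cenpf, Aurka, Aurkb and Ube2c, the last a ubiquitin-conjugating enzyme of the anaphase-promoting complex, were lower by 1.05 to 1.49 without array pairs and were not called with them. Ube2c read 1.34, 1.53, 3.37 and 1.29 in null, 0.99, 1.48, 3.14 and 3.44 in siRNA-labelled and 3.42, 1.95 and 2.93 in wild-type samples. Null replicate 4 was the lowest of the null values although it belongs to the higher set. Cdk1 had the opposite sign from the other tested G2/M genes, at 0.68 ± 0.41 (adjusted p = 0.192), and Mki67 and Hmmr differed by -0.51 and -0.60 (adjusted p = 0.246 and 0.228), smaller in size than the median of all probes.

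Of the replication genes, Pola1, the catalytic subunit of the polymerase that primes synthesis, had no value in null replicate 2 and read -1.60, 3.25 and 0.08 in the other null samples, -1.84, -1.32, 2.18 and 1.01 in siRNA-labelled and 1.91, 0.38 and -0.19 in wild-type samples. The values of replicates 1 and 2 stood below -1, and those of replicates 3 and 4 ranged over 3 log2 units, with a difference of -3.49 ± 0.57 (adjusted p = 0.000544). Ccne2 had the largest difference, -4.07 ± 0.62 (adjusted p = 0.000501), which rests on 2 siRNA-labelled values in replicates 1 and 2 since null has none there. Mcm2 and Mcm7 were lower by 1.94 and 2.04 (adjusted p = 0.00138 and 0.00136), and both passed with array pairs.

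Rfc4, a subunit of the clamp loader, read 1.89, 1.37, 3.11 and 3.17 in null, 1.17, 1.09, 2.13 and 2.57 in siRNA-labelled and 2.81, 2.03 and 2.52 in wild-type samples. Rrm1, the large subunit of ribonucleotide reductase, read 2.64, 2.56, 3.50 and 3.69 in null, 1.84, 1.71, 3.07 and 3.21 in siRNA-labelled and 3.91, 3.75 and 2.73 in wild-type samples. Gins2, part of the active helicase, read 0.86, 0.64, 1.86 and 1.68 in null, 0.56, 0.72, 1.46 and 2.04 in siRNA-labelled and 2.16, 2.20 and 0.77 in wild-type samples. All 4 lower-set values of each lay below all 4 upper-set values, with differences of -1.37 ± 0.32, -1.18 ± 0.34 and -1.06 ± 0.38 (adjusted p = 0.0042, 0.0138 and 0.0362), and Rfc4 passed with array pairs. Ung was also lower, by 1.43 ± 0.52 (adjusted p = 0.0418). The other helicase subunits Mcm3, Mcm4, Mcm5 and Mcm6 had differences of 0.48, -0.30, -0.44 and 0.23 and were not called; together with Mcm2 and Mcm7 they form a ring.

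**Figure D4:**
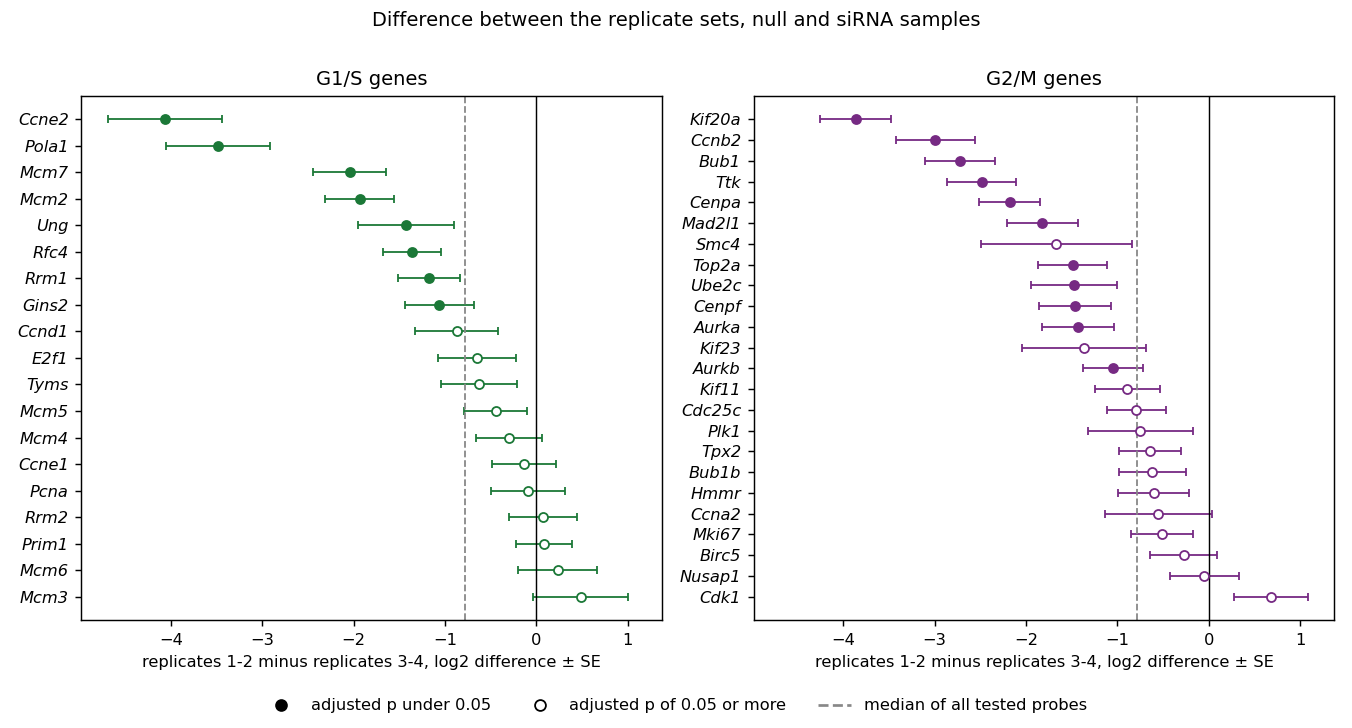
Fitted log2 difference of replicates 1 and 2 minus replicates 3 and 4 (horizontal axis, points, with bars of 1 SE) of the tested G1/S genes (left) and G2/M genes (right); filled points have an adjusted p under 0.05 in limma. The dashed line at -0.78 is the median of all tested probes, and the filled points reach -4.07 (Ccne2) and -3.86 (Kif20a).

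For 2 of 23 G2/M genes the difference of null minus siRNA itself differed between the replicate sets, against 3.13% of all 16414 probes called in limma. It did so for 0 of 18 G1/S genes. At an unadjusted p under 0.05 stood 5 of these 18 (27.8%), against 19.1% of all probes. Ccna2, cyclin A2, which acts in S phase and G2, read 1.97, 1.87, 1.39 and 0.24 in null, 0.25, 0.70, 2.44 and 2.93 in siRNA-labelled and 1.68, 1.79 and 2.20 in wild-type samples. Null was above siRNA in replicates 1 and 2 by 1.44 and below it in replicates 3 and 4, at -1.88, and the difference between these differences was 3.32 ± 0.68 (adjusted p = 0.0271). Smc4 went the other way, at -0.55 in replicates 1 and 2 and 4.20 in replicates 3 and 4 (difference -4.75 ± 0.96, adjusted p = 0.0256). Each combination of group and set here is 1 pair of consecutive samples, so no value with array pairs can be given. Ccna2 ranged over 2.60 to 4.04 with 1 sample left out at a time (adjusted p = 0.0134 to 0.155) and passed in the 4 fits without null replicate 3 or 1 of the wild-type samples. Smc4 ranged over -5.76 to -3.74 (adjusted p = 0.0169 to 0.147) and passed in the 5 fits without null replicate 4, siRNA replicate 4 or 1 of the wild-type samples.

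**Figure D5:**
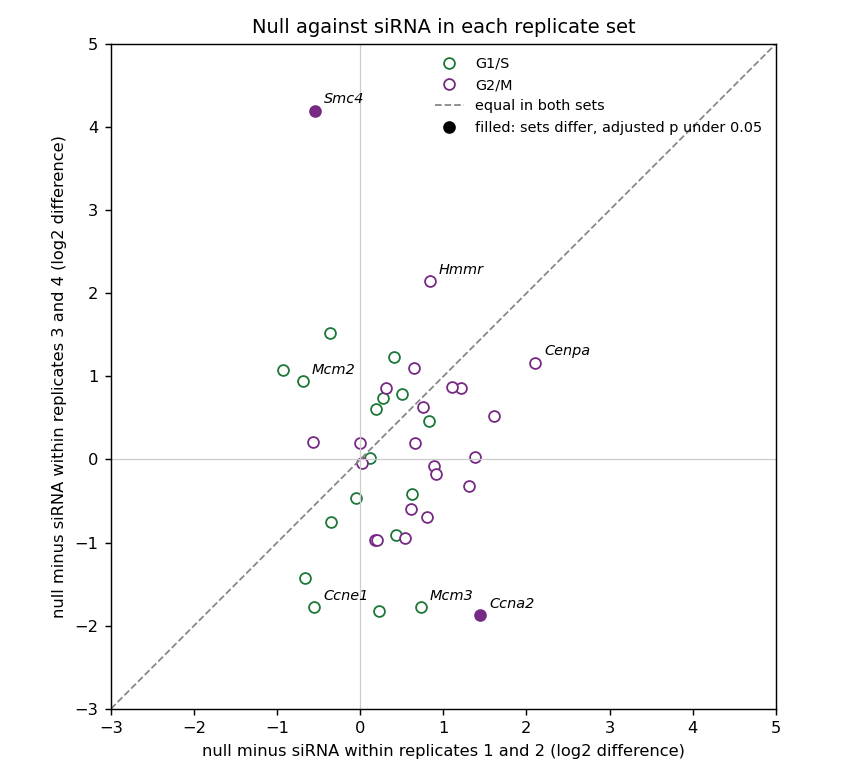
Mean log2 difference of null minus siRNA within replicates 1 and 2 (horizontal axis) and within replicates 3 and 4 (vertical axis) for the G1/S genes (green) and G2/M genes (purple) measured in both. The filled points, Ccna2 and Smc4, lie farthest from the dashed line of equal differences, and Cenpa and Hmmr are positive in both sets.

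Some genes could be followed in part. Cdt1, which loads the helicase with Cdc6, had values in replicates 1 and 2 alone, 1.26 and 1.19 in null and 1.03 and 1.33 in siRNA-labelled samples. Cdc20, the activator of the anaphase-promoting complex, had 3.13 and 3.20 in null and 1.98 and 1.74 in siRNA-labelled samples of these replicates. These values did not overlap, but each group is 1 pair of consecutive samples, correlated across probes at 0.991 in null and 0.988 in siRNA. The share of all probes without such overlap was not counted. Neither gene was tested. Cenpe, a kinetochore motor, had values in replicates 3 and above and no called difference, and Kif23, a kinesin of the midbody, lacked values in 3 of the 11 samples. In all, 17 G1/S and 23 G2/M genes had a value in all 11 samples. The remaining tested genes (Mcm5, Mcm6, Mcm3, Mcm4, Rrm2, Tyms, Prim1, E2f1, Plk1, Bub1b, Kif11, Tpx2, Birc5, Nusap1, Cenpe and Kif23) were called in none of the 5 comparisons.

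Probes of 1 gene did not always go the same way. The second probe of Pcna was lower in replicates 1 and 2 by 2.66 ± 0.33 (adjusted p = 5.62e-05), where the best-measured probe differed by -0.09 ± 0.40, and its differences of null minus wild type (0.57), siRNA minus wild type (0.83) and null minus siRNA (-0.26) all had the sign opposite to the first. The second probe of E2f1, the transcription factor of the G1/S wave, had 0.63 for null minus wild type, 0.68 for siRNA minus wild type and -0.05 for null minus siRNA, against -0.15, -0.73 and 0.58 at the first. The second probe of Mcm3 had 0.65 for null minus wild type and -0.92 between the replicate sets, against -0.28 and 0.48; its remaining probes had too few values for a test. The second probe of Pola1 had 0.12 for null minus siRNA, against -0.24. None of these second probes was called between groups. For Ccne1 and Ttk the signs of the group comparisons were shared, and the second Ttk probe had a difference of null minus siRNA of 1.23 ± 0.38 (adjusted p = 0.0773), against 0.10.

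Other genes of the cycle were set beside the 48. For null against wild type 6 of 43 further replication genes stood at an unadjusted p under 0.05 in limma, against 17.0% of all probes. Called were 0 of these 43 for null against wild type, 2 for siRNA against wild type and, of 44, 1 for null against siRNA, against 0.589%, 7.38% and 5.87% of all probes. These shares are below those of all probes. Prim2, the large primase subunit, read -2.50, -2.22, 0.46 and -1.15 in null, -1.53, -0.78, 1.60 and 2.66 in siRNA-labelled and -0.66, -2.10 and -1.31 in wild-type samples, and rose in siRNA-labelled samples by 3.14 ± 0.59 (adjusted p = 0.00974), with null below siRNA by 1.84 ± 0.49 (adjusted p = 0.0476). Rpa1, which coats single-stranded DNA, had no value in null replicates 3 and 4 and read 3.31 and 2.98 in null replicates 1 and 2, 3.54, 3.85, -3.22 and -3.66 in siRNA-labelled and 0.02, -0.25 and 2.83 in wild-type samples. Its siRNA-labelled values stood above wild type in replicates 1 and 2 and below it in replicates 3 and 4, and the fitted fall of 4.25 ± 0.80 (adjusted p = 0.0134) stands beside a difference between the sets of 7.13. Next by p for null against wild type were Rpa1, the polymerase subunit gene Pold3 and the remodeller gene Hells (-4.80, 1.45 and 1.18). Both measured null values of Rpa1 lay above all its wild-type values. Its -4.80 is what remained after the difference between the sets, estimated in siRNA-labelled samples alone, was taken off. Hells followed Prim2 and Rpa1 for siRNA against wild type (1.54), and Orc2 and Rad51ap1 followed Prim2 for null minus siRNA (-1.17 and -0.90).

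For null against wild type 8 of 49 further mitosis genes (16.3%) stood at an unadjusted p under 0.05 in limma, against 17.0% of all probes. Called were 0 of these 49 for null against wild type, 1 for siRNA against wild type and 2 for null against siRNA. The called shares lie below those of all probes given for the replication genes. Ccnf, cyclin F, read -2.75, -2.09, 0.33 and 0.94 in null, -3.03, -2.45, 0.21 and 0.24 in siRNA-labelled and -0.88, -2.71 and -1.74 in wild-type samples, and rose by 2.03 ± 0.50 in siRNA-labelled samples (adjusted p = 0.0305); for null minus wild type it had 2.39 ± 0.50 (adjusted p = 0.0549). Pttg1, securin, which guards sister chromatid cohesion, was lower in null than in siRNA-labelled samples, at -1.26 ± 0.32 (adjusted p = 0.0397), and Stmn1, which destabilises microtubules, was higher, at 1.40 ± 0.38 (adjusted p = 0.0484). Cdca8 and Hmgb2 had differences of null minus wild type of 1.68 and 1.33, Cdca8 and Bub3 of siRNA minus wild type of 1.51 and -2.59, and Kif18b of null minus siRNA of 2.30, none of them called. None of the called genes of these lists passed with array pairs in a comparison between groups except Rpa1 (adjusted p = 0.0488).

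Of 25 genes that control G1, 1 was called for null against wild type, 1 for siRNA against wild type and 2 for null against siRNA, against 0.589%, 7.38% and 5.87% of all probes. Cdkn1a, the p21 inhibitor of cyclin-dependent kinases, had values in replicates 3 and above: 1.18 and 0.69 in null, 3.53 and 4.35 in siRNA-labelled and 5.15, 4.60 and 4.95 in wild-type samples. The 3 groups did not overlap, with null lowest. Null was below wild type by 3.97 ± 0.48 (adjusted p = 0.0202; 0.199 with array pairs) and below siRNA by 3.01 ± 0.52 (adjusted p = 0.0152; 0.144 with array pairs). Cdkn2b, the p15 inhibitor of Cdk4 and Cdk6, read 0.71, 0.85, 2.99 and 2.41 in null, 1.97, 2.49, 3.83 and 3.91 in siRNA-labelled and 2.64, 1.83 and 2.36 in wild-type samples. It rose in siRNA-labelled samples by 1.64 ± 0.39 against wild type (adjusted p = 0.0274) and was lower in null than in siRNA, at -1.31 ± 0.33 (adjusted p = 0.0376), and neither passed with array pairs (adjusted p = 0.188 and 0.275).

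Ccnd3 and Cdk2 followed for null minus wild type (1.04 and 1.36), Ccnd3 and Cdkn1c for siRNA minus wild type (1.25 and -1.50) and Cdkn2c for null minus siRNA (1.35), and none was called. Between the replicate sets 16 of 41 further replication genes were lower in replicates 1 and 2 and 2 higher, 25 of 46 further mitosis genes lower and 0 higher, and 8 of 24 G1 control genes lower and 1 higher, against 39% of all probes lower. The replication share is that of all probes, and the G1 control share is below it. Their medians were -0.85, -1.17 and -0.53. The smallest p-values were those of Chek1, Orc4 and Rpa1 (-2.44, -3.04 and 7.13), of Gtse1, Racgap1 and Ccnf (-3.77, -2.78 and -3.01) and of Cdkn2b, Ccnd3 and Tfdp1 (-1.78, -1.68 and -1.55). The difference of null minus siRNA differed between the sets for 0 of 36 further replication genes (6 at an unadjusted p under 0.05, against 19.1% of all probes). It did so for 3 of 42 mitosis genes (Smc2, Prc1 and Bub3, at 3.52, 2.51 and -3.78) and for 2 of 22 G1 control genes (Rbl1 and Ccnd2, at 3.25 and -3.03). The called share of all probes was 3.13%. Smc2, the partner of Smc4 in condensin, read 1.97, 1.96, 1.96 and 1.57 in null, -1.93, -1.67, 1.37 and 1.68 in siRNA-labelled and 2.41, 1.37 and 1.28 in wild-type samples, and its siRNA-labelled values in replicates 1 and 2 were the lowest of its values. Smc4 had its lowest value in siRNA replicate 3, in the other set.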

How the data were processed

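The deposited table holds log2 values for 33600 probes in 14 samples, with a median of 0 in every column and missing values marked; per the labels' protocols RNA was labelled directly with Cy3 or Cy5. Scanner, background correction, normalization and filters: not given in the sources used here. Probes were named through GEO's platform annotation: 18179 had 1 gene symbol, 87 several and 15334 none. No further normalization was applied. limma 3.58.1 in R 4.3.3 was fitted to all probes with at least 2 values in each group, with terms for group, dye and replicate set. The p-values were adjusted over all tested probes (Benjamini-Hochberg, threshold 0.05). The difference between the replicate sets was the set term of this fit. The difference of null minus siRNA between the sets came from a fit with group and set combined and a dye term. Groups came from the sample titles, and wild-type replicates 1, 2 and 5 were left out of the fit. The procedure was tested on simulated data with independent noise and changes put into the null samples. These data held no shift between replicate sets and no likeness within consecutive samples, so they do not test the p-values under either. Figures were drawn with Python 3.11.15 and matplotlib 3.10.9.

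The 48 genes and the other lists were chosen with earlier results of these data known. Named with values in every sample were the genes called in any comparison, the 3 of each phase with the smallest p in each comparison of groups, and Mcm2, Pcna, Ccnd1, Ccne1, Cdk1, Top2a, Mki67 and Aurkb; the best-measured probe has the most values over the 11 samples, then the highest mean, then the lowest number. Of the other lists, genes called or among the 3 smallest p were named, for the replicate sets the 3 smallest p alone. Same-numbered samples correlated in their deviations from the group means at 0.12 to 0.65, over all 8 pairs, and the numbers follow the replicate sets. Alternatives left out the set or dye term, used replicates 3 and above, array pairs as a random block, the replicate number as a block, quantile or SD scaling, probes measured in all 11 samples, 1 probe per gene, all 14 samples, robust and trended variances, array weights, an unadjusted threshold, or 1 sample fewer.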

Additional observations from a re-analysis of the deposited data

Results flagged for a closer look

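Among the null and siRNA-labelled groups of 4 samples, 82 sets of values were examined for a sample far from the other 3, and 3 passed Dixon's critical value at the 95% level. With independent values chance passes about 1 in 20. That rate need not hold here, since consecutive samples correlated and the replicate sets differed. Rrm2, the small subunit of ribonucleotide reductase, read 2.714 in null replicate 4, against 3.27 to 3.30 in the other null samples. Cdk1 read 2.995 in siRNA replicate 3, against 3.76 to 3.88 in the other siRNA-labelled samples. Ube2c read 3.366 in null replicate 3, against 1.29 to 1.53 in the other null samples. None of these is a called difference of null, siRNA or wild type.

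For 2 genes the difference of null minus siRNA was itself different in replicates 1 and 2 and in replicates 3 and 4 by a limma interaction term: by 3.32 for Ccna2 (adjusted p = 0.0271) and by -4.747 for Smc4 (adjusted p = 0.0256). The cause was not tested.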

How the results depend on the processing

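Of 758 values of 33 results under alternatives, 570 kept their direction and their side of the threshold or stayed near the value reported, and 188 changed. A count of called genes could stay near with other genes in it. For siRNA against wild type the 1 G2/M gene called within replicates 3 and above was Smc4 in place of Cdc25c. No called value changed sign. Medians near 0 did: for null against wild type the G1/S median was -0.10 without the set term, -0.13 with the replicate block and -0.12 with all 14 samples, and the G2/M median was -0.09 with the replicate block and -0.08 within replicates 3 and above. Calls of probes for null against wild type (120) ranged widely: 0 without the set term, 877 within replicates 3 and above, 1 with array pairs, 349 with the replicate block, 308 with quantile normalization, 73 for probes measured in all 11 samples, 22 with 1 probe per gene, 1 with all 14 samples, 22 with array weights and 3471 unadjusted. G1/S calls were 2 within replicates 3 and above, 1 with quantile normalization and 2 unadjusted, G2/M calls 1 unadjusted, and the G2/M median was -0.50 without the set term. For siRNA against wild type, probe calls (1502) were 66 without the set term, 204 with array pairs, 605 with 1 probe per gene, 778 with all 14 samples and 4755 unadjusted. The G1/S call was 0 without the set term, within replicates 3 and above, with array pairs and with all 14 samples. The G2/M calls were 0 without the set term, with array pairs, SD scaling, all 14 samples and robust variances, 2 with the replicate block and 3 unadjusted, and the G2/M median was -0.87 without the set term. For null against siRNA, probe calls (1197) were 75 without the set term, 1893 within replicates 3 and above, 106 with array pairs, 2259 with the replicate block, 160 with all 14 samples, 2771 with array weights and 5043 unadjusted. G1/S calls were 3 within replicates 3 and above, 2 with the replicate block, 1 with array weights and 4 unadjusted, and G2/M calls 3 within replicates 3 and above, 0 without the set term, with array pairs and with all 14 samples, 5 with array weights and 7 unadjusted. Between the replicate sets array pairs gave 5089 probes, 5 G1/S and 6 G2/M genes, and 1 probe per gene gave 4048 genes. For the interaction, array weights gave 3651 probes, 6 G1/S and 6 G2/M genes, and the unadjusted threshold 3141, 5 and 5. With 1 sample left out at a time, calls ranged over 1 to 223 probes and 0 to 1 G1/S genes for null against wild type, 225 to 1590, 0 to 1 G1/S and 0 to 2 G2/M for siRNA against wild type, 305 to 1840, 0 to 1 and 0 to 2 for null against siRNA, 5 to 8 G1/S between the sets, and 140 to 1143, 0 to 2 and 0 to 2 for the interaction, whose medians ranged over -0.256 to 0.524 (G1/S) and 0.318 to 1.23 (G2/M). Scaling moved the median of all probes by over 0.1 for the sets (-0.68 by quantiles, against -0.78) and the interaction (-0.20 by quantiles and -0.43 by SD, against -0.31). The causes were not tested. Of the p-values, those with array pairs alone allow for sharing within consecutive samples, and with 3 wild-type samples, all in the upper replicate set, differences from wild type rest on the set term.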

Other observations

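Of the 47 cell cycle genes with a probe, 6 have several, and in 5 of these 6 the probe numbers lie a whole multiple of 5600 apart; over all named genes this held for 2127 of the 2663 with several probes (79.9%). The sources used here do not say whether such probes are copies of 1 oligonucleotide, and of the 5 genes with this spacing, E2f1, Mcm3 and Pola1 had probes of opposite sign as given above. Pcna, whose probes also differed, is the gene without it.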
